A study of Homo sapiens with 31 samples.

Results

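The surface antigens by which B-cell precursor acute lymphoblastic leukemia (ALL) is diagnosed, monitored and treated were followed at the transcript level in NALM-6 cells after XIAP knockdown (KD). The antigens were CD22, CD72, CD9, CD37, MME, CD38, CD24, CD47 and CD99, chosen by name, and each was found by the Ensembl gene identifier that carries its symbol. Of these 9 genes, 8 were among the 30667 rows of the count table, and CD37 was not analysed here. NALM-6 is an established B-cell precursor ALL line, so all libraries derive from 1 genetic background. The cells carried lentiviral constructs in which a short hairpin RNA against XIAP (sh-XIAP), or a control hairpin (sh-CTRL), was expressed from the EF1a or the SFFV promoter. In the terms of the study, EF1a/sh-XIAP gives a moderate and SFFV/sh-XIAP a strong KD. Cells were collected 4, 10 and 13 days after transduction, and 31 libraries were available: 3, 3 and 3 for EF1a/sh-CTRL at these days, 2, 2 and 3 for EF1a/sh-XIAP, 3, 2 and 2 for SFFV/sh-CTRL, and 2, 3 and 3 for SFFV/sh-XIAP. The sample descriptions place the cells in vitro, whereas the general design text mentions murine bone marrow; the former was followed. Nothing states whether replicates were separate cultures, so p-values measure the spread between these libraries, which may be technical.

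Libraries were made with prime-seq, a bulk method that reads transcript 3′ ends and tags each molecule with a unique molecular identifier (UMI), which removes PCR duplicates. Totals ranged from 312852 to 1153668 UMIs, with a median of 603822, and levels are given in CPM, the UMIs of a gene scaled to a common library total. The targeted transcript was sparse: XIAP had 196 UMIs in all, between 2 and 14 in a library. On days 10 and 13 it stood at 8.86 ± 3.06 CPM in SFFV/sh-XIAP (SD, n = 6), 10.2 ± 4.72 in SFFV/sh-CTRL (n = 4), 9.62 ± 1.45 in EF1a/sh-XIAP (n = 5) and 10.8 ± 4.67 in EF1a/sh-CTRL (n = 6), and a decrease was not detectable at this depth (strong KD: log2 fold change −0.26, SE 0.395, adjusted p = 0.975 by limma-voom). At day 4, XIAP was 8.02 and 9.26 CPM with SFFV/sh-XIAP, above the 7.21 to 7.55 CPM of SFFV/sh-CTRL (log2 fold change 0.21, SE 0.515, from 4 to 7 UMIs per library), and 9.19 and 12.7 CPM with EF1a/sh-XIAP, within the 7.12 to 16.1 CPM of EF1a/sh-CTRL (log2 fold change 0.15, SE 0.427). The KD was thus not visible in XIAP counts on any of these days. All 10 B-cell precursor markers examined were present, summing to between 4274 and 5007 CPM per library. Marker lists of T cells, myeloid cells, NK cells, erythroid cells and stroma summed to at most 38.4 CPM in any library. These sums cover the markers with a row: 2 of 6 for T cells, 5 of 6 for myeloid cells, 3 of 4 for NK cells, 3 of 4 for erythroid cells and 2 of 4 for stroma. The label of a B-cell precursor leukemia line was thus met by its markers.

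These proteins mark stages of B-cell development and serve different functions at the membrane. CD22 and CD72 are inhibitory coreceptors that recruit phosphatases and dampen B-cell receptor signaling, and CD22 is the target of an antibody-drug conjugate used in ALL. CD9 and CD37 are tetraspanins, which organize partner proteins into membrane domains. MME, known as CD10 or common ALL antigen, is a zinc endopeptidase, and CD38 is an ectoenzyme that consumes NAD. CD24 is a heavily glycosylated protein held by a lipid anchor, CD47 signals to phagocytes through SIRPA, and CD99 is a small glycoprotein used to detect residual leukemia. Total RNA reports the transcript only, and surface protein was not measured in these data. Fewer cells expressing a transcript and less transcript per cell cannot be told apart in bulk libraries.

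Among the 8 antigens, CD9 and MME were lower in cells with strong KD than in the other constructs, at 0.902 and 0.931 of the level there, and no other antigen passed the limma-voom test in any of the 12 comparisons. The threshold was an adjusted p of at most 0.25, and the other constructs pooled both promoters and both hairpins. Against SFFV/sh-CTRL alone, the control with the same promoter, neither was called (adjusted p = 0.595 for CD9 and 0.935 for MME by limma-voom). Because CD9 and MME were the antigens called in the pooled comparison, a promoter window of each is shown. The sequences are RefSeq windows on GRCh38.p14, reaching from 250 bases before to 50 bases after an annotated transcript start, on the plus strand. The CD9 window lies at chr12:6200592-6200891 and the MME window at chr3:155079620-155079919. Capitals mark the E-box CAGGTG on either strand, a sequence bound by E-proteins such as TCF3, a regulator of B-cell precursors.
CD9: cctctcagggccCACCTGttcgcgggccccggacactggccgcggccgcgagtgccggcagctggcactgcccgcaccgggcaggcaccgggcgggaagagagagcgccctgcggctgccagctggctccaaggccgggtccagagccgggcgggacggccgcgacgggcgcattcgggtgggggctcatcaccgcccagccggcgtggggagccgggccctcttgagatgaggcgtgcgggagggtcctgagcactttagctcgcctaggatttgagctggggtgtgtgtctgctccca
MME: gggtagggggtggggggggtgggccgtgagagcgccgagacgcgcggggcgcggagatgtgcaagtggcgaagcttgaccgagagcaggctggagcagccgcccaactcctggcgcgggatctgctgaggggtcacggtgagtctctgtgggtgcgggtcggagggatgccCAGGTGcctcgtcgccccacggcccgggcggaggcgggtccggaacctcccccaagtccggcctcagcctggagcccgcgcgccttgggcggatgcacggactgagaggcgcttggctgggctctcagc
CD9 and MME each have 4 such windows, and the ones shown were picked because they hold an E-box, as 1 other MME window does. That window overlaps the one shown and holds the same site, which is counted in both. CAGGTG, searched on both strands, was found in 5 of the 16 windows of the 8 antigens (windows of CD38, MME, CD24 and CD9), against 20.6% of all 35116 promoter windows of the same length. CCCNNGGG, a motif of the EBF1 type that is its own reverse complement, occurred in 4 of the 16 windows (MME, CD24, CD99 and CD47), against 19.1% of all windows. A match describes the letters only, since binding was not measured.

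CD9 (chr12:6199715-6238271, plus strand; here and below from the GENCODE 29 annotation on GRCh38) was a strongly counted antigen, with 164 to 642 UMIs in every library and 11763 in all. On days 10 and 13, the 6 SFFV/sh-XIAP libraries ranged from 482.0 to 590.8 CPM, with a median of 545.6. The 4 SFFV/sh-CTRL libraries held 646.1, 603.5, 583.9 and 592.1 CPM. With EF1a/sh-XIAP the 5 libraries held 587.6, 634.8, 601.1, 595.6 and 587.7 CPM, and the 6 EF1a/sh-CTRL libraries ranged from 559.6 to 652.1 with a median of 616.6. Of the 6 strong KD libraries, 4 lay below the lowest of the 15 libraries of the other constructs, and the groups overlapped through the remaining libraries. The highest of these 4, at 558.9 CPM, was barely below that lowest library, at 559.6 CPM. The share of all genes with as many such libraries was not computed. The means were 541.7 ± 37.6 CPM (SD, n = 6) with SFFV/sh-XIAP, 606.4 ± 27.7 (n = 4) with SFFV/sh-CTRL, 601.4 ± 19.5 (n = 5) with EF1a/sh-XIAP and 611.7 ± 34.9 (n = 6) with EF1a/sh-CTRL. Against the mean of the other 3 constructs, CD9 was lower by 0.15 on the log2 scale (SE 0.0366, 95% interval −0.22 to −0.08, adjusted p = 0.0729 by limma-voom). The means by day are a description, since each rests on 2 or 3 libraries. The change in the strong KD effect on CD9 from day 4 to the later days was not called (log2 difference −0.19, adjusted p = 0.935 by limma-voom). Group means with SFFV/sh-XIAP were 565.2, 538.5 and 545.0 CPM at days 4, 10 and 13. In the other 3 constructs the means rose after day 4. They were 549.4, 607.4 and 616.0 CPM with EF1a/sh-CTRL, 541.8, 611.2 and 594.8 with EF1a/sh-XIAP, and 545.0, 624.8 and 588.0 with SFFV/sh-CTRL.

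MME (chr3:155024124-155183729, plus strand) had 184 to 780 UMIs per library and 13363 in all. On days 10 and 13, the 6 SFFV/sh-XIAP libraries lay between 588.1 and 636.6 CPM, with a median of 622.5. The 4 SFFV/sh-CTRL libraries held 657.4, 622.7, 663.7 and 633.4 CPM. Those 4 overlapped the strong KD libraries, 3 of which lay below every library of the other constructs. For MME too, the share of all genes with as many such libraries was not computed. The 5 EF1a/sh-XIAP libraries held 689.0, 688.8, 706.8, 662.6 and 692.7 CPM, and the 6 EF1a/sh-CTRL libraries ranged from 638.9 to 703.4 with a median of 662.2. The means were 616.4 ± 19.8 CPM (SD, n = 6) with SFFV/sh-XIAP, 644.3 ± 19.4 (n = 4) with SFFV/sh-CTRL, 688.0 ± 16.0 (n = 5) with EF1a/sh-XIAP and 665.5 ± 21.3 (n = 6) with EF1a/sh-CTRL, so that both SFFV constructs stood below both EF1a constructs. Against the mean of the other 3 constructs, MME was lower by 0.10 on the log2 scale (SE 0.0306, 95% interval −0.16 to −0.04, adjusted p = 0.220 by limma-voom).

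In this comparison of strong KD with the other constructs, 2 of the 8 antigens were called, both lower, under the study's threshold (adjusted p no higher than 0.25), while 0.837% of the 17683 genes tested were called. These shares differ in precision, and the antigens were chosen with earlier results of these data known. CD9 and MME were the most counted antigens, with SE of 0.0366 and 0.0306 against a median of 0.240 over all genes. CD22 and CD38 each differed by 0.17, with SE of 0.133 and 0.0993, and were not called. The edgeR quasi-likelihood test called CD9 (adjusted p = 0.141) and not MME (adjusted p = 0.561), with 1.13% of genes called. With the threshold lowered to 0.05, neither antigen was called. The CD9 call also rested on individual libraries: it was lost without replicate 1 of SFFV/sh-CTRL at day 10, replicate 1 or 3 of SFFV/sh-XIAP at day 10, or replicate 3 of SFFV/sh-XIAP at day 13, and MME was called in none of the 21 fits that left out 1 library. Within day 10 alone the log2 difference was −0.16 for CD9 and −0.10 for MME, and within day 13 alone −0.13 and −0.09, none of them called. The other 6 antigens had differences between −0.29 (CD99) and 0.17 (CD38) with adjusted p of at least 0.853. Over all 8 the median log2 difference was −0.00, against −0.01 over all genes.

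**Figure D1:**
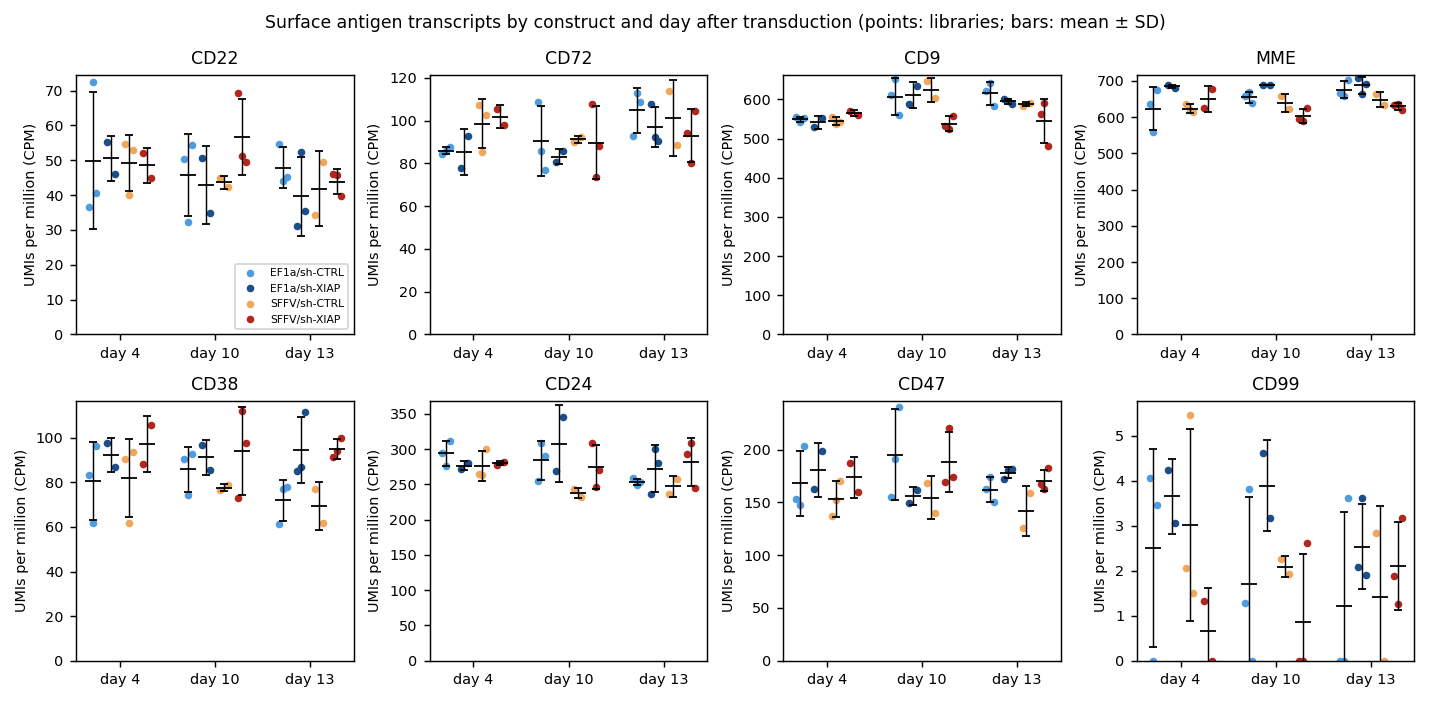
Level of each antigen transcript in CPM (linear axis from 0) by day after transduction, with 1 point per library, construct by colour, and bars for mean ± SD of the 2 or 3 libraries of a group; lower bars that would cross 0 are cut at the axis. In CD9, the 3 SFFV/sh-XIAP libraries of day 10 lie between 524.2 and 558.9 CPM. The lowest library of the other constructs that day is close by, at 559.6 CPM. How many of all genes separate in this way was not counted, and CD9 was not called within day 10 alone. CD99 stays below 6 CPM throughout.

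The comparison with the matching promoter asked what strong KD changed against SFFV/sh-CTRL. None of the 8 antigens was called there (limma-voom), while 0.0792% of genes were, 14 of 17683. At an unadjusted p under 0.05 stood 3 antigens, among 988 genes. CD9 differed by −0.16 (95% interval −0.27 to −0.06, unadjusted p = 0.00367, adjusted p = 0.595). CD38 was 1.25 times its control level (log2 fold change 0.33, 95% interval 0.03 to 0.62, adjusted p = 0.847), and CD24 1.14 times (0.19, 95% interval 0.02 to 0.37, adjusted p = 0.847). MME differed by −0.06 (95% interval −0.15 to 0.03), CD47 by 0.21 (−0.02 to 0.44), CD22 by 0.16 (−0.23 to 0.55) and CD72 by −0.09 (−0.36 to 0.18). These last 4 intervals include 0 and reach at most 0.55 on the log2 scale. edgeR called none of the 8, with 49 genes called in all. DESeq2 called 0 genes of any kind, so its count of antigens could only be 0. When EF1a/sh-CTRL was added to the control, CD9 was called at −0.16 (adjusted p = 0.0626).

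Moderate KD, EF1a/sh-XIAP against EF1a/sh-CTRL, gave 0 called antigens of 8 by limma-voom, edgeR and DESeq2, while limma-voom called 0.017% of genes. Over all genes, edgeR called 3 and DESeq2 0. CD38 and CD99 were the 2 antigens with an unadjusted p under 0.05. CD38 stood at 1.24 times its control (log2 fold change 0.31, 95% interval 0.04 to 0.57, adjusted p = 0.992). CD9 differed by −0.04 (−0.14 to 0.06) and MME by 0.04 (−0.04 to 0.12), intervals that exclude changes beyond 0.14 on the log2 scale in either antigen. The difference between strong and moderate KD was tested itself and no antigen was called, while 0.00566% of genes were. It was −0.12 for CD9 (−0.26 to 0.02, adjusted p = 0.964) and −0.11 for MME (−0.23 to 0.02, adjusted p = 0.964), so these data do not show that the effects on CD9 and MME differ between strong and moderate KD. No antigen had an unadjusted p under 0.05 in this comparison, and edgeR and DESeq2 called none. Over all genes, edgeR called 23 in it and DESeq2 0.

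CD38 (chr4:15778275-15853230, plus strand) was the antigen whose 95% interval lay above 0 in both KD comparisons, which have separate control libraries. On days 10 and 13 its 6 SFFV/sh-XIAP libraries ranged from 72.9 to 111.9 CPM, median 95.8, and the 4 SFFV/sh-CTRL libraries held 76.5, 78.8, 76.9 and 61.9 CPM. All but 1 of the strong KD libraries lay above all 4 controls, and the share of all genes with as many was not computed. The 5 EF1a/sh-XIAP libraries held 96.8, 85.7, 85.0, 86.9 and 111.6 CPM, and the 6 EF1a/sh-CTRL libraries ranged from 61.3 to 92.9 with a median of 77.3. Here the groups overlapped, although the lowest EF1a/sh-XIAP library, at 85.0 CPM, was above the control median. Counts behind these levels were 27 to 117 UMIs per library, and neither difference passed the adjustment over all genes.

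**Figure D2:**
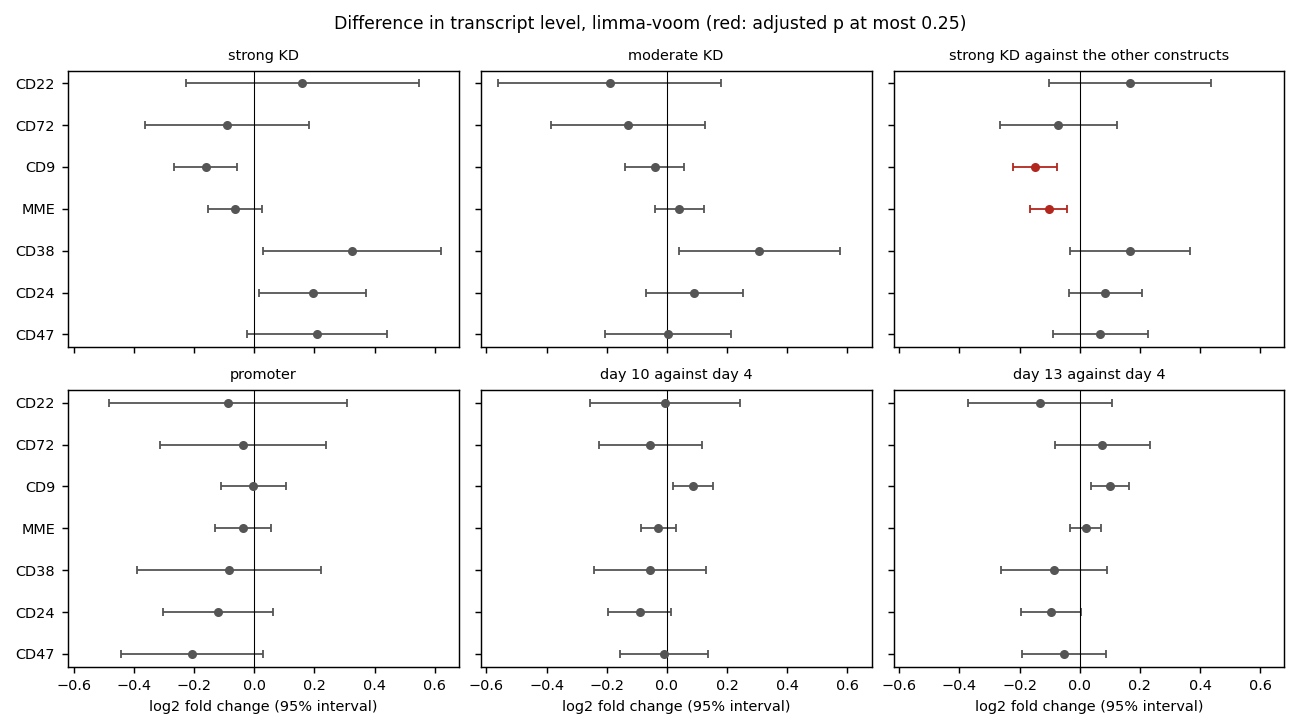
Difference of each antigen (CD99 left out for its few UMIs) on the log2 scale with its 95% interval from limma-voom, in 6 comparisons; red marks an adjusted p of at most 0.25. CD9 and MME lie below 0 for strong KD against the other constructs (−0.15 and −0.10), and CD38 lies near 0.3 in both KD comparisons without being called.

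The coreceptors showed no called difference. CD22 (chr19:35319261-35347355, plus strand) averaged 46.9 ± 9.55 CPM over the 31 libraries, with 11 to 57 UMIs each, and its late group means ran from 40.9 ± 9.92 CPM (EF1a/sh-XIAP, n = 5) to 50.2 ± 10.1 (SFFV/sh-XIAP, n = 6). CD72 (chr9:35609533-35646810, minus strand) averaged 93.6 ± 11.4 CPM, with late group means from 91.3 ± 13.4 CPM (SFFV/sh-XIAP, n = 6) to 97.6 ± 14.5 (EF1a/sh-CTRL, n = 6). In both genes the means of the 4 constructs spanned less than the libraries of any of the constructs did. Of 16 signaling partners of these coreceptors, such as LYN, SYK and the phosphatases PTPN6 and INPP5D, all 16 were tested and none was called in any of the 12 comparisons. Their median log2 difference with strong KD was 0.05, against −0.02 over all genes.

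CD24 (chr6:106969831-106975627, minus strand) averaged 274.6 ± 27.2 CPM over 31 libraries. Its late means were 278.5 ± 29.3 CPM with SFFV/sh-XIAP (n = 6), 242.5 ± 11.2 with SFFV/sh-CTRL (n = 4), 286.6 ± 40.5 with EF1a/sh-XIAP (n = 5) and 269.0 ± 24.5 with EF1a/sh-CTRL (n = 6), with SFFV/sh-CTRL the lowest. CD24 has processed copies elsewhere in the genome, and CD24P4 on chromosome Y was listed with 84 UMIs beside 5686 for CD24, so a small part of CD24 counts may have been divided between them. CD47 (chr3:108043094-108091862, minus strand) averaged 169.7 ± 23.9 CPM, and again SFFV/sh-CTRL had the lowest late mean, 148.3 ± 19.4 CPM (n = 4), against 179.4 ± 21.2 with SFFV/sh-XIAP (n = 6), 169.2 ± 13.5 with EF1a/sh-XIAP (n = 5) and 178.7 ± 33.5 with EF1a/sh-CTRL (n = 6). CD47 was also the antigen whose replicates varied most beyond counting: its chi-square per degree of freedom within the 12 groups of construct and day was 1.92, above 1.62, the 90th percentile of 8984 genes with a mean of at least 10 UMIs. For CD9 and MME the same ratio was 0.846 and 0.637 against a median of 1.07, so their replicates varied no more than counting alone would give.

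CD99 (X:2691133-2741309, plus strand, in a pseudoautosomal region shared by X and Y) gave 45 UMIs over all 31 libraries, at most 4 in any. The 17 pseudoautosomal protein-coding genes with a row, CD99 included, ran from 0 UMIs (ASMT and IL9R) to 20139 (SLC25A6), with a median of 225. CD99L2, a related gene on X, had 252 UMIs, and the pseudogene CD99P1 had 23. With moderate KD its log2 difference was 1.13, over the wide interval of 0.00 to 2.25, and it rested on 8 UMIs in the 5 KD and 5 UMIs in the 6 control libraries. No statement on CD99 is possible at this depth.

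The promoter itself made no called difference: SFFV/sh-CTRL against EF1a/sh-CTRL had 0 of 8 antigens called by limma-voom, edgeR and DESeq2 and 0 at an unadjusted p under 0.05, while 0.00566% of genes were called. That share is from limma-voom. Over all genes, edgeR called 5 and DESeq2 0. Differences ran from −0.21 for CD47 to 0.53 for CD99, and CD9 stood at −0.00 (95% interval −0.11 to 0.10). At day 4, when 2 or 3 libraries per construct were available, no antigen was called with strong KD, moderate KD or between promoters, nor reached an unadjusted p under 0.05, by limma-voom, and edgeR and DESeq2 called none. The share of genes called by limma-voom was 0.0109%, 0.0491% and 0.0164%. Over all genes, edgeR called 8, 0 and 0, and DESeq2 0 in each. Where 0 genes were called, a count of 0 antigens was the only possible one. CD9 was then 570.6 and 559.8 CPM with SFFV/sh-XIAP and 556.3, 536.5 and 542.2 with SFFV/sh-CTRL, so it lay above its control (log2 difference 0.04, 95% interval −0.09 to 0.18). Libraries of this pair that did not overlap were common at day 4, at 18.98% of genes. MME at day 4 was 687.5 and 681.7 CPM with EF1a/sh-XIAP and 636.7, 557.7 and 676.1 with EF1a/sh-CTRL, again without overlap, as in 18.7% of genes for that pair.

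Whether strong KD acted differently at day 4 and later was tested directly, as the late effect minus the day 4 effect. No antigen was called, while 0.0226% of genes were, and 1 antigen, CD9, had an unadjusted p under 0.05 (log2 difference −0.19, 95% interval −0.35 to −0.03, unadjusted p = 0.0192, adjusted p = 0.935). For MME this difference was −0.11 (−0.25 to 0.04, adjusted p = 0.954). edgeR and DESeq2 called 0 genes of any kind there, so their counts of called antigens could only be 0.

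Levels over time were compared across the 4 constructs together. For CD9 this pools constructs whose group means moved in different directions. With SFFV/sh-XIAP its mean was 565.2 CPM at day 4, 538.5 at day 10 and 545.0 at day 13. In every other construct its mean was higher at days 10 and 13 than at day 4, so the pooled means do not follow those of SFFV/sh-XIAP. Tested against SFFV/sh-CTRL, this difference in course was not called (adjusted p = 0.935 by limma-voom). CD9 averaged 549.7 ± 11.96 CPM at day 4 (SD, n = 10), 591.0 ± 46.1 at day 10 (n = 10) and 585.8 ± 40.2 at day 13 (n = 11). The log2 difference from day 4 was 0.09 at day 10 (95% interval 0.02 to 0.15, unadjusted p = 0.0134, adjusted p = 0.625) and 0.10 at day 13 (0.04 to 0.16, unadjusted p = 0.00281, adjusted p = 0.362). Neither passed the threshold, and no antigen was called at day 10 or day 13 against day 4, or at day 13 against day 10, while 0.26%, 0.515% and 0.0452% of genes were called. In the first of these comparisons and in the second, CD9 was the 1 antigen under an unadjusted p of 0.05, and in the third there was none. edgeR called none in any of them, with 34, 76 and 4 genes called in all, and DESeq2 called CD9 at day 10 against day 4 (0.11, adjusted p = 0.227). CD24 averaged 282.3 ± 15.5, 276.9 ± 35.9 and 265.3 ± 26.0 CPM at days 4, 10 and 13, and MME 641.0 ± 40.5, 643.2 ± 35.4 and 661.4 ± 29.7, and neither was called between days. None of the 10 B-cell precursor markers was called with strong or moderate KD. Over time, the pre-B receptor component IGLL1 rose at day 10 (log2 difference 0.12, adjusted p = 0.0525) and day 13 (0.14, adjusted p = 0.00177) and the E-protein gene TCF3 at day 13 (0.15, adjusted p = 0.200) by limma-voom, neither of them by edgeR (adjusted p between 0.32 and 0.556).

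**Figure D3:**
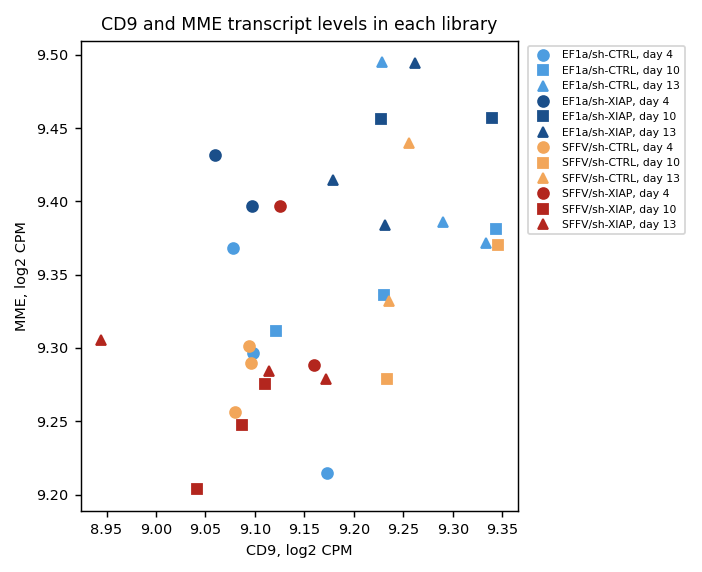
CD9 against MME in log2 CPM (prior count 2, normalized by TMM), 1 point per library, with construct as colour and day as shape. The 6 SFFV/sh-XIAP libraries of days 10 and 13 lie between 9.20 and 9.31 in MME and between 8.94 and 9.17 in CD9, a range that libraries of day 4 from other constructs share. Over the 31 libraries r was 0.50.

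Of the pairs of antigens, CD9 and MME had the highest correlation over the 31 libraries (Pearson's r = 0.50, permutation p = 0.00493, Spearman's rho = 0.47, permutation p = 0.00846, both two-sided with 100000 permutations). After adjustment over the 21 pairs of 7 antigens p was 0.0518 and 0.104, and r was 0.52 without the 2 libraries farthest from the CD9 median. All permutation p-values here come from shuffling libraries freely over the 12 groups of construct and day. They therefore do not separate differences between groups from a link between single libraries. Within the 12 groups, r of CD9 and MME was −0.00. CD22 and MME had the lowest correlation (r = −0.51, permutation p = 0.0034, adjusted p = 0.0518, rho = −0.38, permutation p = 0.0344, adjusted p = 0.181). It was −0.33 without the 2 libraries farthest from the CD22 median and −0.62 within groups. No pair passed an adjusted p of 0.05. The genes with the pattern most like each antigen over the 31 libraries, among 8983 others, are given as a description. For CD9 these were KCTD17 (r = 0.75), NBPF3 (0.67) and PGK1P2 (0.63), and for MME BAHCC1 (0.71), MYADM (0.64) and R3HCC1 (0.64). They were NEMP1 (0.59), EXOC4 (0.57) and HEBP1 (0.56) for CD22, AKAP12 (0.59), VPS41 (0.56) and GLUD1 (0.56) for CD72, and SMIM30 (0.64), AC010642.2 (0.63) and RAB13 (0.63) for CD38. For CD24 they were COL4A3BP (0.64), ZNF286A (0.62) and MDK (0.61), and for CD47 PCLAF (0.63), TYW1 (0.60) and PGD (0.60). The 99th percentile of all such correlations lay between 0.42 and 0.47.

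Other surface proteins were read from lists. Of 26 further B-ALL surface antigens, 19 were tested on days 10 and 13, and none was called in any of the 12 comparisons. Their median log2 difference with strong KD was −0.02, with 8 higher and 11 lower. CD79B (mean 374.2 CPM), a signaling chain of the B-cell receptor, was among them. Of 17 tested members of the tetraspanin web, CD9's partners and relatives such as CD81 (431.6 CPM) and CD63 (135.0 CPM), none was called in any comparison, with a median of 0.02 under strong KD. Of 6 tested NAD and adenosine ectoenzymes and CD47 partners, CALR, encoding calreticulin, an endoplasmic reticulum chaperone, was higher with strong KD than in the other constructs (log2 difference 0.21, SE 0.0372, adjusted p = 0.00145 by limma-voom and 0.00979 by edgeR). In that comparison 0.837% of genes were called by limma-voom and 1.13% by edgeR. CALR was a strongly counted gene, with 12034 UMIs in all. Against SFFV/sh-CTRL alone CALR differed by 0.12 (adjusted p = 0.832), and it was called in no other comparison.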

How the data were processed

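Expression was measured in 31 libraries of NALM-6 cells. The authors deposited a table of UMI counts, whole numbers per Ensembl gene and library, without normalization. The submitters' processing notes name STAR 2.6.0a and the builds hg38, mm10, GRCh38 and GRCm38 without their roles, and the sources used here do not give the annotation. The labels do not say whether libraries that the study left out as outliers are among the 31, and none was left out here. Groups follow the sample descriptions.

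Genes with over 1 CPM in at least 1/3 of the samples of a fit were kept, scaled by TMM (factors 0.944 to 1.03) and fitted in limma-voom on construct plus day, two-sided, with Benjamini-Hochberg adjustment over all genes, after the study's methods (R 4.3.3, limma 3.58.1, edgeR 4.0.16; DESeq2 1.42.0 as an alternative). Days 10 and 13 (21 samples), day 4 (10 samples) and all samples were fitted apart. Per-sample CPM used total UMIs, and log2 CPM a prior count of 2. Intervals are 95%. The script was tested on simulated counts with 200 changed genes. With a median of 603822 UMIs per library, the precision of sparse antigens is set by their UMI counts, which are given. Promoter windows came from RefSeq, GRCh38.p14, where all 8 antigens had an entry.

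The antigens, lists and tests were chosen with earlier results of these data known. Named genes were all antigens, XIAP, called genes of the lists (at most 3 per comparison), and the 3 genes best correlated with each antigen among genes with a mean of at least 10 UMIs. Alternatives were other tools, scalings, filters, thresholds and covariates, a replicate block, each day alone and each library left out.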

Additional observations from a re-analysis of the deposited data

Results flagged for a closer look

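Among 32 combinations of antigen and construct on days 10 and 13, a library stood apart from its group by Dixon's criterion in 4, while chance flags about 1 in 20. CD38 was 61.9 CPM in replicate 2 of SFFV/sh-CTRL at day 13, where the other 3 libraries of the construct held 76.5 to 78.8 CPM. CD72 was 113.9 CPM in replicate 1 of SFFV/sh-CTRL at day 13, the next library being at 92.2 CPM. CD9 was 634.8 CPM in replicate 2 of EF1a/sh-XIAP at day 10, above 601.1 CPM in the next library. CD47 was 220.6 CPM in replicate 2 of SFFV/sh-XIAP at day 10, the shallowest library with 312852 UMIs, where the next held 182.3 CPM. Of 16 tests of a difference between effects (strong against moderate KD, and late against day 4), 0 passed the threshold with limma-voom. edgeR called 0 of these too, and for late against day 4 it called 0 genes of any kind. At an unadjusted p under 0.05 by limma-voom stood 1, CD9 late against day 4.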

How the results depend on the processing

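Of 407 recomputed counts of called antigens, 366 were as reported. Some of these were counts of 0 in settings that called 0 genes of any kind, such as DESeq2 for strong KD. For strong KD against the other constructs (2 antigens), 0 were called at a threshold of 0.05, with counts thinned to 1 depth, with all 31 samples, at day 10 alone and at day 13 alone. There 1 was called with edgeR, limma-trend, no TMM, no filter on low counts, log2 total UMIs as a covariate, and without the shallowest libraries of both sh-XIAP constructs (an alternative chosen after seeing the data); 2 were called with DESeq2, DESeq2 size factors and filterByExpr. Leaving out 1 library gave 0 to 1. CD9 was called in 27 of these 36 settings (log2 difference −0.17 to −0.09, adjusted p 0.0292 to 0.669) and MME in 4 (−0.12 to −0.07, adjusted p 0.0966 to 0.84). Strong KD gave 1 antigen, CD9, with both sh-CTRL constructs as control. Day 10 against day 4 gave 1 with DESeq2 (CD9) and 2 with no filter (CD9 and CD24), where 8868 genes were called against 46. Day 13 against day 4 gave 1 (CD9) with DESeq2 size factors, no filter and filterByExpr, and 0 to 1 without each library in turn. No called difference reversed, and 186 uncalled values changed sign.

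Pooled over constructs and days, replicate numbers showed no pairing of libraries. Residuals of libraries with the same number had a mean correlation of 0.0009 over 149 pairs, and −0.0004 over 290 pairs with different numbers. The highest values were 0.0463 and 0.0448. Pairing within a day or within a construct was not tested apart. With a replicate block, 2 antigens remained called for strong KD against the other constructs, CD9 (adjusted p = 0.157) and MME (0.228), and the count of called antigens changed in no other comparison. Over all genes, strong KD gave 14 by limma-voom and 49 by edgeR, and 2 to 45 when a library was left out; against the other constructs these were 148, 199 and 56 to 216. The cause of these changes was not tested. Depth limits XIAP and CD99.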
